A study of Homo sapiens with 15 samples.

Results

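The genes described here make, export and receive WNT signals: 19 WNT ligand genes, 10 Frizzled receptor genes (FZD1 to FZD10), the co-receptors LRP5 and LRP6, the secretion genes PORCN and WLS, and the alternative receptors ROR1, ROR2 and RYK. Their accessible chromatin was taken as every merged ATAC-seq region inside, or within 50 kb of either end of, 1 of these 36 genes on hg38. ATAC-seq reads out DNA that a transposase can reach, and a region is a stretch covered by peaks of 1 or more libraries that share at least 1 bp. This rule gave 630 of 222814 regions, 293 of them nearest a ligand gene, 140 a Frizzled gene, 43 an LRP gene, 51 PORCN or WLS and 103 a ROR or RYK gene. The rule used position only. At its edge, the last regions inside lay 49838 bp from FZD4, called in 2 libraries, and 49973 bp from ROR1, called in 14, and the first outside lay 50020 bp from WNT7B, called in 6, and 50127 bp from FZD5, called in 15.

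WNT proteins are lipid-modified in the endoplasmic reticulum by the acyltransferase porcupine, the product of PORCN, and are carried to the cell surface by the transport protein WLS. Outside the cell they bind Frizzled receptors together with LRP5 or LRP6, which stabilises β-catenin, or bind ROR1, ROR2 and RYK, which act largely through other branches. Lgk974 is a small molecule that inhibits porcupine, so it acts on the product of PORCN and not on the gene.

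HPAF-II is an established human pancreatic adenocarcinoma line, and all 15 samples are labelled as this line. The growth protocol in the labels describes a second line, KATO III, as well, and no library here carries its name. The study compared 1 µM Lgk974 for 24 h (4 libraries) with DMSO, the solvent control, for 24 h (4 libraries), and 1 µM Lgk974 for 48 h (3 libraries) with DMSO for 48 h (4 libraries), to find changes in chromatin structure. The labels do not say whether replicates are separate cultures. The spread that each p-value is measured against is therefore that between libraries, which may be technical. The files held peak lists and no read counts, so the depth is unknown.

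The lists held 53610 to 98930 peaks in Lgk974 libraries at 24 h and 76756 to 127886 in DMSO libraries at 24 h, and 57708 to 122834 in Lgk974 libraries at 48 h and 84856 to 104877 in DMSO libraries at 48 h. Lgk974 replicate 3 at 24 h (53610 peaks) and Lgk974 replicate 3 at 48 h (57708 peaks) had the shortest lists, and DMSO replicate 3 at 24 h had the longest, with the lowest mean overlap with the other libraries (mean Jaccard index 0.376, against 0.478 to 0.656 in the other 14). Tests that these 3 libraries bear on are also given without them. Of 12 pancreatic epithelial marker genes, 11 had a peak at their start in all 15 libraries. A start was called in all 15 libraries for 1 of 7 fibroblast markers (COL1A1), 3 of 6 immune markers (CD3E, CD68 and CD14) and 0 of 4 endothelial markers, and the immune-defining PTPRC had no peak in any library. The part of other cell types in the results below was not tested. In bulk ATAC-seq, access in fewer cells and weaker access in each cell cannot be told apart.

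The promoter sequences of 6 of these genes are shown. PORCN is the gene of the drug's target. WLS, WNT4 and FZD5 each had a region that differed between treatments, before adjustment, among the peaks of smallest q value. Those regions lay 103818, 20158 and 14934 bp from the starts shown, outside these windows. LRP5 and WNT8B are set against them, the one rich and the other poor in CG pairs, with starts called in 1 and 0 libraries. Each sequence runs from 250 bases before the start to 50 bases after it, 5′ to 3′ on the gene's strand, from RefSeq on GRCh38.p14, in lower case with CG pairs in capitals.
PORCN, first listed start, chrX:48508742-48509041, plus strand: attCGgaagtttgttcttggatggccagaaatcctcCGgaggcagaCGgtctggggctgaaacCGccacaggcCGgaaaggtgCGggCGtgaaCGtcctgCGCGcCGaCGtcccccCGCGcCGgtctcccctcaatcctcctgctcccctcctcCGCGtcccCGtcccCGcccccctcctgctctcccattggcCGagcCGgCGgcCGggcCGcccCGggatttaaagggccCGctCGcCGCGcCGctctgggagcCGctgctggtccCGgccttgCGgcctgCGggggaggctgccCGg
WLS, first listed start, chr1:68232474-68232773, minus strand: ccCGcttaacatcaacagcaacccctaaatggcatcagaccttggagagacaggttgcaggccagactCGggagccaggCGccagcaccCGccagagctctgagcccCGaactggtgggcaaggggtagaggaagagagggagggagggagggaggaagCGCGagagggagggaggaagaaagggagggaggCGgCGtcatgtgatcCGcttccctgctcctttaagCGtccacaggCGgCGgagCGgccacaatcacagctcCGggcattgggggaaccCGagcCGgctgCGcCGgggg
WNT4, chr1:22143048-22143347, minus strand: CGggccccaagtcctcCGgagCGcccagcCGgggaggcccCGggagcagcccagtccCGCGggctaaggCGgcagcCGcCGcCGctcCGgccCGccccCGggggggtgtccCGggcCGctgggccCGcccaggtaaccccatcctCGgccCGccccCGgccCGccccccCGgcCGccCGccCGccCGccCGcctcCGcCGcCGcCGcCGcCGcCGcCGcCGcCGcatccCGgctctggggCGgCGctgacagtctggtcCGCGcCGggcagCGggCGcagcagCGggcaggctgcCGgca
FZD5, chr2:207769857-207770156, minus strand: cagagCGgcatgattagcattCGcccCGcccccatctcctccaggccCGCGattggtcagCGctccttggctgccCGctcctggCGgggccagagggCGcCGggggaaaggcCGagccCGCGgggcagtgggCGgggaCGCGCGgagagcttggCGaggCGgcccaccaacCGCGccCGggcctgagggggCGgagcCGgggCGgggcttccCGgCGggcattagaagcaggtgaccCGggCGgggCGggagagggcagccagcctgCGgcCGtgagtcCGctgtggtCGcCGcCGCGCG
LRP5, chr11:68312341-68312640, plus strand: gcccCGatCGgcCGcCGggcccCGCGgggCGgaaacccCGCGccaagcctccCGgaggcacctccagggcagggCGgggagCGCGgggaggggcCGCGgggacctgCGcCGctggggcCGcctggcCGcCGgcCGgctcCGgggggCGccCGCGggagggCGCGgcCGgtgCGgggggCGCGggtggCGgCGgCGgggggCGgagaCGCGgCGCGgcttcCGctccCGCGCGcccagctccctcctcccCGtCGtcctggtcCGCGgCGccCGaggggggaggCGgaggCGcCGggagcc
WNT8B, chr10:100462759-100463058, plus strand: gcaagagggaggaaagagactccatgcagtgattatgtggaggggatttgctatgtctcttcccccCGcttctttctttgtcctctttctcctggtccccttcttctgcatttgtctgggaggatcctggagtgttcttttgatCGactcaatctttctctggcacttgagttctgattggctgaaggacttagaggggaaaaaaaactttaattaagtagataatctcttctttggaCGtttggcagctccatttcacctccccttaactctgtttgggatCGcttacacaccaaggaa

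These windows held 35 CG pairs in PORCN, 19 in WLS, 47 in WNT4, 38 in FZD5, 52 in LRP5 and 4 in WNT8B. RefSeq listed 32 starts for 27 of the 36 genes, with a second start for PORCN, WLS, WNT2B, WNT5A and WNT5B. WNT7B, WNT10B, WNT11, FZD2, FZD3, FZD6, FZD7, FZD10 and LRP6 were measured at either annotated end instead. The 32 windows had a median GC content of 72.7% and a median of 31 CG pairs, against 58.7% and 14 over all 35116 promoter windows and 62.3% and 21 over the 22156 of protein-coding genes. The number of CG pairs overlapped between called and uncalled starts: the median was 34 (range 18 to 53) over the 11 starts called in all 15 libraries, 26.5 (7 to 52) over the 12 called in 1 to 14, and 28 (4 to 49) over the 9 called in 0. The letters CTTTGAT, a core bound by TCF and LEF factors, and their reverse complement ATCAAAG were in 0 of the 32 windows, and in 2.62% of all promoter windows and 1.99% of those of protein-coding genes, on either strand.

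Most gene starts were called in all libraries or in none. A peak lay within 1 kb of the start in all 15 libraries for 16 of the 36 genes (44.4%), and in none for 8 (22.2%). The same shares over 19974 protein-coding genes were 54.8% and 20.1%. These counts hold for the starts that RefSeq's promoter table lists, or for either end of the 9 genes without a listed start. For WNT5A, WNT8A, WNT9B, WNT10A, WNT16 and LRP5 the listed starts are not the annotated 5′ end of the gene. Within 1 kb of that end, a place added after the data were seen, a peak was called in all 15 libraries at LRP5, in 13 at WNT8A, in 1 each at WNT9B and WNT10A and in 0 at WNT5A and WNT16. The plot of start calls shows the 36 genes by library.

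**Figure D1:**
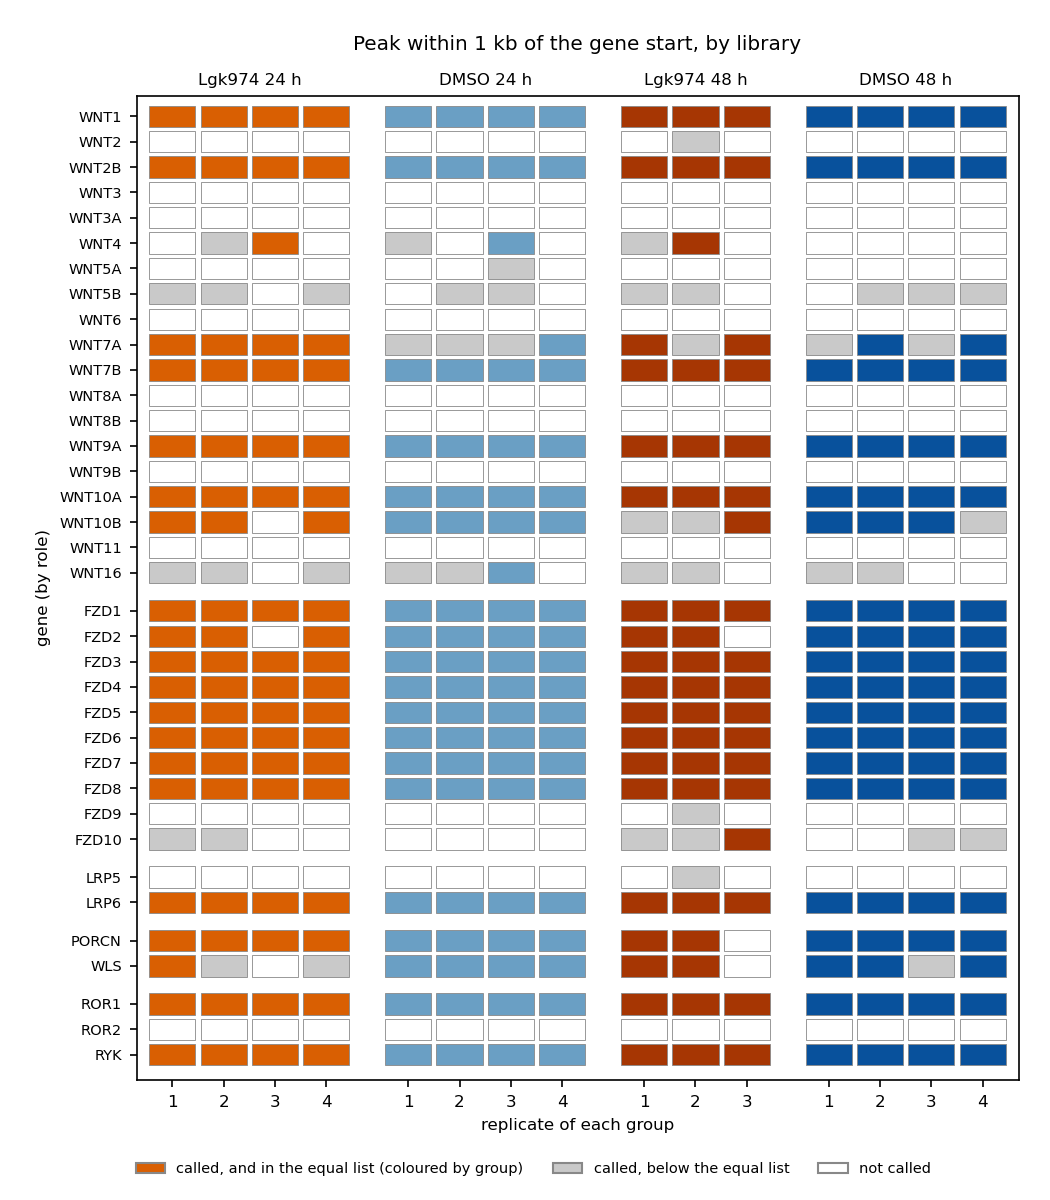
Calls at the start of each of the 36 genes (rows, by role) in each of the 15 libraries (columns, by group and replicate). The 9 genes without a listed start were measured at either annotated end. Filled cells had a peak within 1 kb, coloured where that peak was also among the 53583 of smallest q value in its library and grey where it was not, and white cells had none. The starts of FZD1 and FZD3 to FZD8 were called in every library, those of 8 genes in none, and those of FZD2, WLS, PORCN and WNT10B were missing only in libraries with short lists.

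Among the ligands, WNT1, the first WNT gene found in mammals and a mouse mammary proto-oncogene, WNT2B, WNT7A, WNT7B, WNT9A and WNT10A were called at the start in all 15 libraries. Their peaks differed in strength: ranked by the authors' −log10 q, the WNT1 peak stood at a median of 4.88% from the top of its own library's list (range over 15 libraries 1.65% to 8.88%), WNT9A at 10.9% (5.27% to 19.4%), WNT2B at 12.6% (9.54% to 43.8%), WNT7B at 15.5% (7.99% to 23.6%), WNT10A at 21.9% (12.8% to 35.95%) and WNT7A at 53.8% (46.1% to 92.4%). WNT7A and WNT7B, neighbours in sequence that signal through FZD5 and other Frizzled receptors in epithelia, thus had peaks of middling and of high rank. WNT10B, measured at either end, was called in 6 of the 7 Lgk974 and 8 of the 8 DMSO libraries. WNT4 and WNT16, which act in organ development and in bone, and WNT5B were called in some libraries of both treatments. WNT3, WNT3A, WNT6, WNT8A, WNT8B, WNT9B and WNT11 had no peak at a listed start (for WNT11, at either end) in any library, WNT2 had 1 in Lgk974 replicate 2 at 48 h, and WNT5A, a ligand of ROR receptors, had 1 in DMSO replicate 3 at 24 h. The annotated 5′ end of WNT8A, however, at position 138077367 of chromosome 5, had a peak in 6 of the 7 Lgk974 libraries (not in replicate 3 at 48 h) and 7 of the 8 DMSO libraries (not in replicate 3 at 24 h).

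Of the 10 Frizzled starts, 7 were called in all 15 libraries, against 6 of the 19 ligand starts, a difference that was not tested. The measure differs between these counts. FZD2, FZD3, FZD6, FZD7 and FZD10, and of the ligands WNT7B, WNT10B and WNT11, were measured at either annotated end, where a 3′ peak also counts. At either end FZD9 was called in 14 libraries and WNT8B in 14, against 1 and 0 at their listed starts. FZD1, FZD3, FZD4, FZD5, FZD6, FZD7 and FZD8 were the 7 Frizzled genes called in all 15 libraries. The FZD1 peak ranked highest at a median rank of 3.19% (range 0.611% to 8.63%) and FZD3 stood at 37.5% (3.61% to 66.0%). FZD5, the Frizzled receptor that RNF43-mutant pancreatic cancer lines are known to depend on, stood at 11.3% (4.63% to 19.2%). FZD2 was called in 5 of the 7 Lgk974 and 8 of the 8 DMSO libraries, and the 2 without a call were Lgk974 replicate 3 at 24 h and Lgk974 replicate 3 at 48 h, which have the shortest lists. FZD9 was called in 1 library at its start. LRP6 was called in all 15 libraries, and so were ROR1 and RYK, whereas ROR2 was called in none. The listed LRP5 start, with the CG-rich window above, was called in 1 library, Lgk974 replicate 2 at 48 h. RefSeq's annotated LRP5 gene, however, begins upstream of that start, at position 68298412 of chromosome 11, and the region there (chr11:68297669-68299127) was called in all 15 libraries.

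Of the secretion genes, PORCN was called in 6 of the 7 Lgk974 and 8 of the 8 DMSO libraries, missing only in Lgk974 replicate 3 at 48 h. WLS was called in 5 of the 7 Lgk974 and 8 of the 8 DMSO libraries, missing in Lgk974 replicate 3 at 24 h and Lgk974 replicate 3 at 48 h, the same 2 libraries as for FZD2. The 12 libraries other than the 3 that stood apart all called PORCN, WLS, FZD2 and WNT10B. Starts called in 13 or more libraries were not tested.

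Only 4 member starts, called in 3 to 12 libraries, could be tested, by a two-sided exact permutation test with labels permuted within each time. WNT4 was called in 4 of the 7 Lgk974 libraries (replicates 2 and 3 at 24 h, 1 and 2 at 48 h) and 2 of the 8 DMSO libraries (replicates 1 and 3 at 24 h), with an exact p of 0.194. FZD10, at either end, was called in 5 of the 7 Lgk974 libraries (replicates 1 and 2 at 24 h, all 3 at 48 h) and 2 of the 8 DMSO libraries (replicates 3 and 4 at 48 h), with an exact p of 0.0918. WNT5B was called in 5 of the 7 Lgk974 and 5 of the 8 DMSO libraries (exact p = 0.9898), and WNT16 likewise in 5 and 5 (exact p = 0.927). For all 4 genes the groups overlapped, and at an unadjusted p under 0.05 neither direction had a member start (0 higher, 0 lower). Over the 1879 gene starts tested, 1.22% were higher and 2.24% lower at that level, and 0.0% passed after Benjamini-Hochberg adjustment (smallest adjusted p = 0.383, exact permutation test). In equal lists, which keep the 53583 peaks of smallest q value from every library, the WNT7A start was called in 6 of the 7 Lgk974 and 3 of the 8 DMSO libraries and the WLS start in 3 of the 7 Lgk974 and 7 of the 8 DMSO libraries. Neither passed an unadjusted p of 0.05.

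Beyond the starts, the number of regions varied widely between genes. ROR1 had 38 regions in or near its long gene body and ROR2 37, LRP5 had 35 and WLS 31, against 5 for WNT2 and 8 each for WNT4, FZD8 and LRP6. At 31 of the 36 genes at least 1 region was called in all 15 libraries. LRP5 had 14 such regions, ROR1 10, WNT7B 9 and PORCN 8. The 5 genes with none were WNT2, WNT4, WNT5A, WNT16 and FZD9. At WNT5A each of the 9 regions was called in 1 library. Neighbouring genes share regions: WNT1 and WNT10B share 21, WNT6 and WNT10A 19, WNT3 and WNT9B 10, and WNT3A and WNT9A 5, so their counts are not independent.

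**Figure D2:**
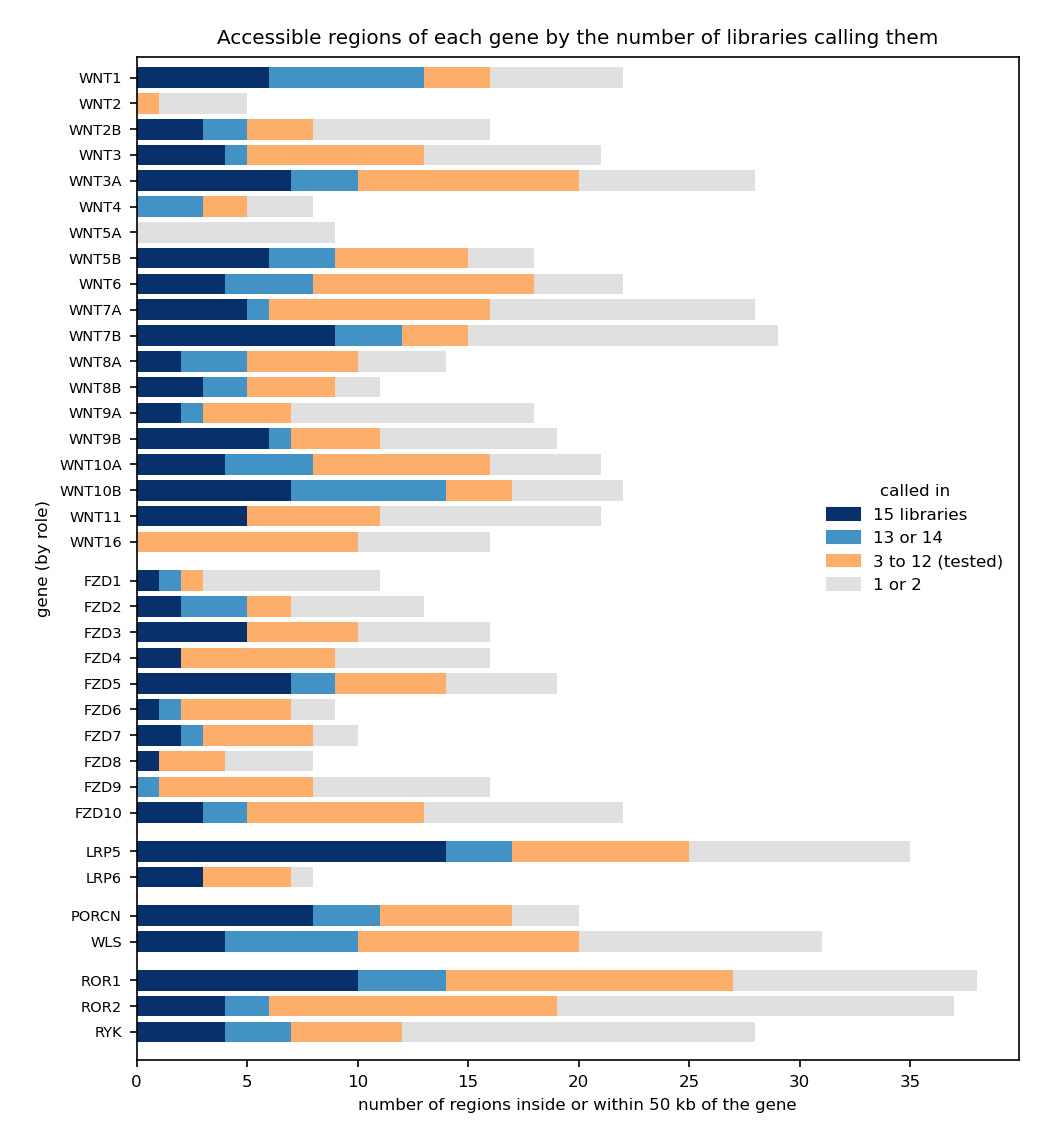
Number of regions inside or within 50 kb of each gene (bars, by role), split by how many of the 15 libraries called them. LRP5, ROR1 and WNT7B had the most regions called in all 15 libraries (14, 10 and 9), and WNT2, WNT4, WNT5A, WNT16 and FZD9 had none. Regions shared by neighbouring genes are counted at each.

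Of the 630 regions, 132 (21.0%) were called in all 15 libraries and 197 (31.3%) in 1 only. The shares were 18.0% and 36.4% among the 171599 regions within 50 kb of any protein-coding gene, and 15.9% and 39.5% among all 222814. Regions near the LRP genes were called in all 15 libraries most often (17 of 43, 39.5%), then those of the secretion genes (12 of 51, 23.5%), the ligands (61 of 293, 20.8%), ROR and RYK (18 of 103, 17.5%) and the Frizzled genes (24 of 140, 17.1%). By position, 47 regions lay within 1 kb of a member start (36.2% called in all 15 libraries), 214 elsewhere inside a member gene (17.8%), 24 at the start of another protein-coding gene (58.3%) and 345 elsewhere (18.3%). The median width was 443 bp (range 200 to 2544 bp), against 395 bp over all regions.

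With all peaks, calling of the member regions as a whole differed little between the treatments. Each library's calls were set against all regions called in as many libraries, and the gap is given as a detection excess in percentage points, with no test. Regions called in all 15 libraries cannot differ in this measure and shrink the mean. At 24 h it averaged -0.27 ± 0.88 points in Lgk974 libraries (SD, n = 4; range -1.45 to 0.44) and 0.45 ± 0.46 in DMSO libraries (SD, n = 4; range -0.23 to 0.77). At 48 h it averaged 0.47 ± 1.41 points in Lgk974 libraries (SD, n = 3; range -0.51 to 2.09) and -0.53 ± 1.31 in DMSO libraries (SD, n = 4; range -1.73 to 1.20). The Lgk974 minus DMSO difference was -0.72 points at 24 h and 1.01 at 48 h, or 0.14 over both times, which is less than the SD between libraries. The ranges of the treatments overlapped at each time. In equal lists the difference was 1.39 points, with SDs of 2.34 points over Lgk974 libraries and 1.95 over DMSO libraries. Over the member regions called in 3 to 12 libraries alone, the difference was -0.30 points with all peaks and 6.25 in equal lists. That equal-list difference was 4.76 points at 24 h and 7.75 at 48 h. Its SDs were 7.07 points over Lgk974 libraries and 5.95 over DMSO libraries, and the ranges of the treatments overlapped at each time.

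The roles are smaller sets of regions and their values scattered more. Near LRP5 and LRP6 the excess averaged 0.03 ± 2.97 points in Lgk974 libraries and -2.24 ± 3.64 in DMSO libraries at 24 h (SD, n = 4 each). At 48 h it averaged 6.62 ± 3.34 points in Lgk974 libraries (SD, n = 3; 2.79 to 8.92) and -2.76 ± 3.44 in DMSO libraries (SD, n = 4; -7.50 to 0.52), so the treatments did not overlap at 48 h. In equal lists they did: the 48 h Lgk974 libraries ranged from -8.43 to 13.6 points and the 48 h DMSO libraries from -11.9 to 0.10. The LRP difference over both times was 5.83 points with all peaks and 6.50 in equal lists. The SDs were 4.53 points over Lgk974 libraries and 3.29 over DMSO libraries with all peaks, and 7.64 and 5.94 in equal lists. Near PORCN and WLS the difference over both times was -1.11 points with all peaks. In equal lists it was -7.82 points. The 24 h Lgk974 libraries ranged from -4.21 to 2.62 points and the 24 h DMSO libraries from -1.39 to 5.86, which overlap, whereas the 48 h Lgk974 libraries ranged from -11.4 to -3.75 points and the 48 h DMSO libraries from -0.09 to 9.43, which do not overlap. The Frizzled difference was -1.44 points with all peaks and 1.71 in equal lists, and the ligand difference 0.53 and 1.61, both below the SD between libraries. The ROR and RYK difference was -0.55 points with all peaks and 3.66 in equal lists. The Frizzled difference and the ROR and RYK difference thus have opposite signs in the 2 kinds of list.

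**Figure D3:**
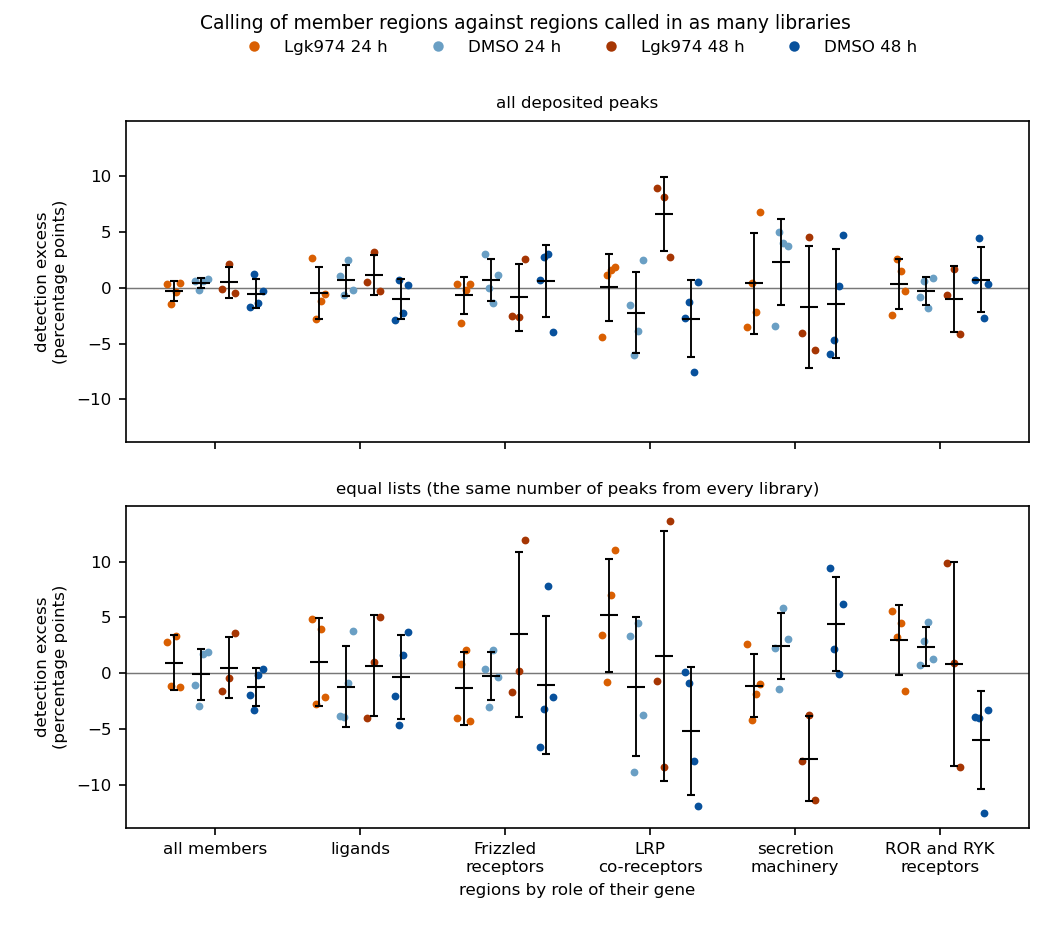
Detection excess in percentage points (y) of the member regions and of each role (x), with 1 point per library coloured by group, and the mean with SD as black bars, for all deposited peaks (top) and equal lists (bottom). The values of each set average 0 over the 15 libraries by definition. The treatments lie apart at 48 h for the LRP co-receptor genes with all peaks and for the secretion genes in equal lists.

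With all deposited peaks, 192 member regions were called in 3 to 12 of the 15 libraries and tested. At an unadjusted p under 0.05, Lgk974 libraries called 3 of these more often and 3 less often (two-sided exact permutation test over every assignment of labels within time). The background over the 60356 regions tested was 2.96% higher and 3.08% lower, so 3 of 192 in each direction lies below the background. None passed after Benjamini-Hochberg adjustment, and 0.0% of all regions did (smallest adjusted p = 0.418, exact permutation test). The median difference in the share of libraries calling was -0.04 over the members and -0.04 over all regions. Without 1 library these small counts lay between 0 and 4 higher (4 without Lgk974 replicate 3 at 48 h) and between 1 and 6 lower (6 without DMSO replicate 3 at 24 h). Without the 3 libraries that stood apart they were 7 higher and 1 lower of 140 members tested, against a background of 6.5% and 1.49%.

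The region that differed most lay beside FZD10, at chr12:130147894-130148661, 13803 bp from the lower-coordinate end of the gene (chr12:130162464-130165740). At 24 h none of the Lgk974 libraries called it (0 of 4) and all DMSO libraries did (4 of 4), and at 48 h 1 of 3 Lgk974 libraries (replicate 2) and 4 of 4 DMSO libraries did, with an exact permutation p of 0.00204 (adjusted p = 0.418). At 24 h the treatments did not overlap, and at 48 h a single Lgk974 library, the longest Lgk974 list, carried a call. No protein-coding start lay nearer than 189226 bp (PIWIL1) by the promoter table, in which FZD10 has no entry. In each of the 15 fits without 1 library the exact p stayed under 0.05 (highest 0.00571), and in equal lists it was 0.0306, and up to 0.0857 without 1 library. The ends of the FZD10 gene itself, a Frizzled gene that is low in most adult tissues, had calls in 5 of the 7 Lgk974 and 2 of the 8 DMSO libraries, as given above (exact p = 0.0918).

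The other 5 regions lost p under 0.05 in 8 (ROR2) or 12 (the other 4) of the 15 fits without 1 library. Inside ROR2, chr9:91789904-91790323 was called in 0 of the 7 Lgk974 libraries and in 5 of the 8 DMSO libraries (replicates 1 and 2 at 24 h, 2, 3 and 4 at 48 h), with an exact p of 0.0306. Inside WNT3, chr17:46772061-46772555 was called in 2 of the 7 Lgk974 and 7 of the 8 DMSO libraries, with an exact p of 0.0388. The other WNT3 region, chr17:46727653-46727971, 34535 bp beyond the gene's 3′ end, went the opposite way, with calls in 4 of the 7 Lgk974 and 0 of the 8 DMSO libraries (exact p = 0.0306). Inside WNT3A, chr1:228015301-228015694, and 11955 bp before PORCN, chrX:48496708-48497037, calls were in 5 of the 7 Lgk974 libraries (the same replicates, 1, 2 and 4 at 24 h and 1 and 2 at 48 h) and 1 of the 8 DMSO libraries, with an exact p of 0.0388 for each. The Lgk974 libraries without a call at these 2 regions were those with the shortest lists. For all 5 regions the adjusted p was between 0.666 and 0.741 (exact permutation test). At all 5, the calls came from peaks beyond the first 53583 of their lists, so they have no value in equal lists. Without the 3 libraries that stood apart the exact p was 0.00333 for the WNT3A region, 0.0133 for the PORCN region and the WNT3 region with more Lgk974 calls, 0.0667 for the other WNT3 region and 0.080 for the ROR2 region.

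Equal lists set the length of every list to that of the shortest and keep its peaks of smallest q value. They held 294 member regions, of which 86 were tested, and at an unadjusted p under 0.05 Lgk974 libraries held 10 more often and 3 less often (two-sided exact permutation test). The background over 26355 regions was 7.65% higher and 6.85% lower, and after adjustment 0 members and 0.0% of all regions passed (smallest adjusted p = 0.0821, exact permutation test). Without 1 library, 6 to 9 members were higher and 1 to 3 lower. With 40000 peaks a library, 7 were higher and 5 lower of 62, against 8.35% and 7.18% of all regions tested. With 25000, 3 were higher and 2 lower of 48, against 8.4% and 7.65%. Both lengths were chosen after the data were seen.

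The clearest difference in equal lists was a region 20158 bp upstream of WNT4, at chr1:22163255-22164137, for which WNT4 (chr1:22117313-22143097, minus strand) has the nearest protein-coding start. It was in the equal lists of 7 of the 7 Lgk974 libraries and 0 of the 8 DMSO libraries, separating the treatments at both times, with the smallest p the design allows, 0.000408 (exact permutation test; adjusted p = 0.0821). The exact p was at most 0.00143 without any 1 library, 0.00333 without the 3 libraries that stood apart, and 0.00612 with 40000 peaks a library. In the full lists the region was called in 7 of the 7 Lgk974 and 7 of the 8 DMSO libraries, so the difference lies in the rank of its peak and not in its calling. The peak ranked from 26040 to 41383 in Lgk974 libraries and from 61029 to 79756 in the DMSO libraries that called it, with no call in DMSO replicate 3 at 48 h. Ranks from lists of different lengths show no change by themselves and are given to show which side of the equal list's end each peak fell. A further WNT4 region, 46626 bp beyond the gene's 3′ end and nearer to the start of CDC42 (chr1:22070228-22070687), was in 7 of the 7 Lgk974 and 2 of the 8 DMSO equal lists (exact p = 0.0102). In the full lists it was called in 7 of the 7 Lgk974 and 7 of the 8 DMSO libraries.

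The FZD5 gene (chr2:207762598-207769906, minus strand) had a region of the same kind 14934 bp upstream, at chr2:207784840-207785356. It was in the equal lists of 4 of 4 Lgk974 and 0 of 4 DMSO libraries at 24 h and of 2 of 3 Lgk974 (replicates 2 and 3) and 0 of 4 DMSO libraries at 48 h (exact permutation p = 0.00204, adjusted p = 0.0838). Its peak ranked from 31632 to 53941 in the 7 Lgk974 libraries and from 60665 to 95465 in 5 DMSO libraries, and had no call in DMSO replicate 4 at 24 h and DMSO replicates 1 and 3 at 48 h. The FZD5 start itself, shown above, was in the equal lists of all 15 libraries.

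Inside WLS (chr1:68098459-68232546, minus strand), 103818 bp from its start and 77373 bp from the nearest protein-coding start (DIRAS3), the region chr1:68128000-68128705 went the other way. It was in the equal lists of 0 of 4 Lgk974 and 3 of 4 DMSO libraries at 24 h and of 0 of 3 Lgk974 and 4 of 4 DMSO libraries at 48 h (exact permutation p = 0.00204, adjusted p = 0.0838). Its peak ranked from 55025 to 74346 in 6 Lgk974 libraries, with no call in Lgk974 replicate 3 at 24 h, and from 19564 to 34598 in 7 DMSO libraries. The DMSO library apart from these was replicate 3 at 24 h, at rank 112241, which is also the library with the lowest overlap with the others. Without that library the region was in 0 of the 7 Lgk974 and 7 of 7 DMSO equal lists. In other equal lists, without the 3 libraries that stood apart or with fewer peaks, an exact permutation p under 0.05 was lost in 1 of 3. The difference in the share of libraries calling lay between -1 and -0.5 in those lists. The locus plot shows this region beside the other WLS regions.

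**Figure D4:**
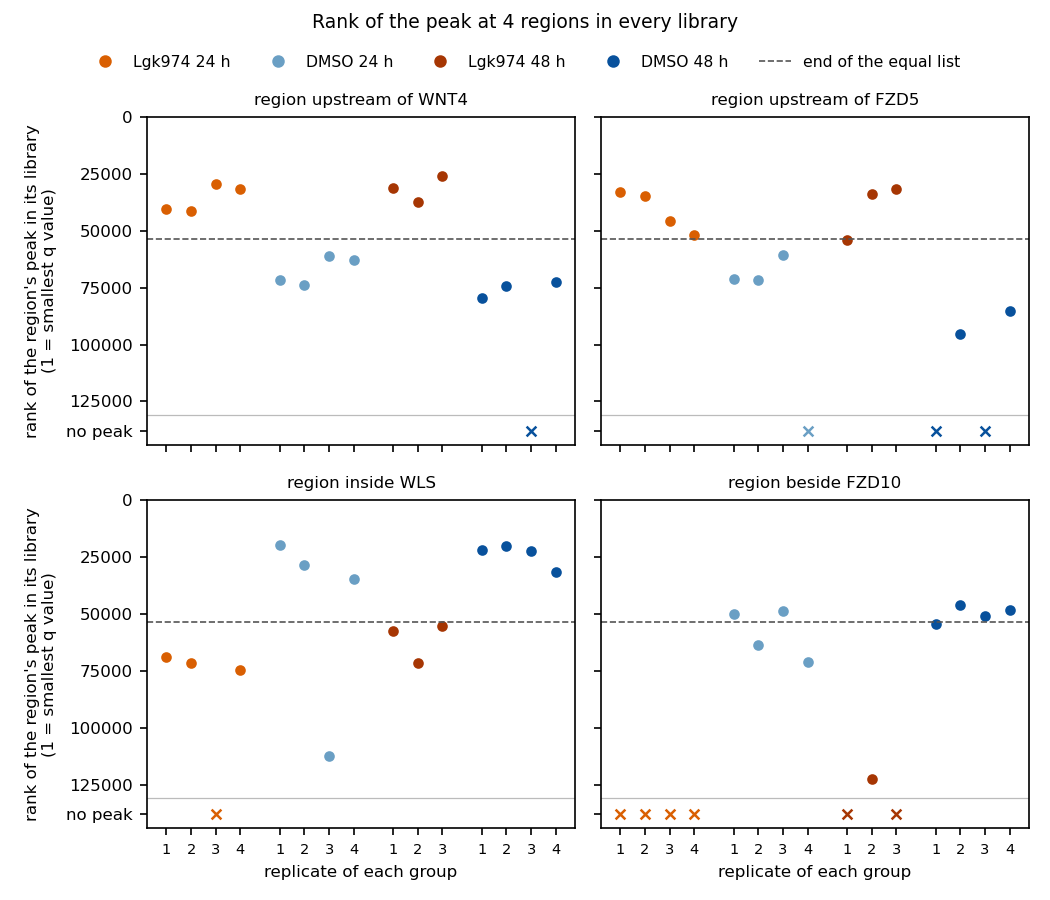
Rank by q value (y, smallest q value at the top) of the peak at 4 regions in each of the 15 libraries (x, by group and replicate), with the end of the equal list at rank 53583 as a dashed line and libraries without a peak as crosses at the bottom. At the WNT4 region the 7 Lgk974 libraries lie above the line and the DMSO libraries below it, at the WLS region 7 DMSO libraries lie above it, and at the FZD10 region 6 of the 7 Lgk974 libraries have no peak.

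**Figure D5:**
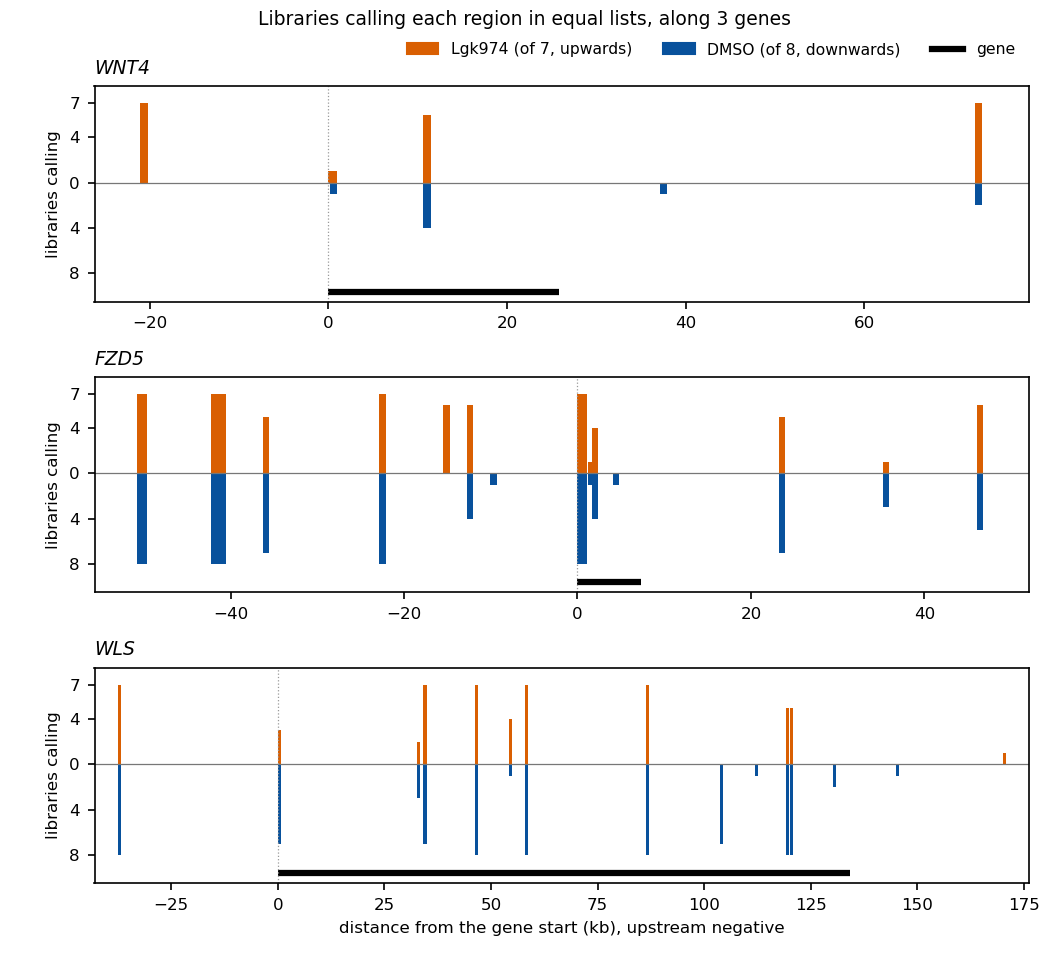
Regions along WNT4, FZD5 and WLS by distance from the gene start in kb (x, upstream negative), with the number of Lgk974 libraries calling each in equal lists upwards (of 7) and of DMSO libraries downwards (of 8); the black bar is the gene. Most regions were called by both treatments, and the region 20158 bp upstream of WNT4 was called in 7 Lgk974 and 0 DMSO equal lists.

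The other equal-list regions were less sharply divided. Higher in Lgk974 libraries, each with an exact permutation p of 0.0102, were a region inside WNT7A (chr3:13839180-13839694; 5 of the 7 Lgk974 and 0 of the 8 DMSO libraries), 1 beyond the 3′ end of LRP5 (chr11:68471512-68472227; 6 and 1) and 1 upstream of FZD1 (chr7:91238987-91239680; 7 and 2). With an exact p of 0.0306 followed regions inside LRP5 (chr11:68331126-68331868; 4 of the 7 Lgk974 and 0 of the 8 DMSO libraries), inside ROR1 (chr1:64019726-64020235; 6 and 2) and beyond WNT1 (chr12:48996787-48997182; 4 and 0), and with an exact p of 0.0469 a region inside WNT3A (chr1:228043301-228043883; 5 and 1). With all peaks the WNT7A region was called in 7 of the 7 Lgk974 and 4 of the 8 DMSO libraries. Calls were 6 and 7 beyond LRP5, 7 and 7 upstream of FZD1, 6 and 5 inside LRP5 and 6 and 5 inside ROR1. They were 7 and 7 beyond WNT1 and 6 and 8 inside WNT3A. The 3′ LRP5 and WNT3A regions thus went the opposite way with all peaks. By nearest protein-coding start, the 3′ LRP5 region lay 10760 bp from PPP6R3 and the ROR1 region 183388 bp from UBE2U. The p stayed under 0.05 in each fit without 1 library for the WNT7A, FZD1 and 3′ LRP5 regions and for the WNT4 region near CDC42. It did not in 12 of 15 fits for the regions inside LRP5, ROR1 and WNT3A and beyond WNT1. Other equal lists, without the 3 libraries that stood apart or with fewer peaks, gave less stable results. Where such lists gave a value, p under 0.05 was lost in 2 of 2 for the WNT7A region. The same held in 2 of 2 for the WNT4 region near CDC42. For the 3′ LRP5 region it was lost in 1 of 2, and for the FZD1 region in 0 of 1. Lower, each with an exact p of 0.0306, were the FZD10 region above (0 of the 7 Lgk974 and 5 of the 8 DMSO libraries) and a region 5437 bp upstream of WNT9A (chr1:227953369-227954355; 2 and 7), and both lost p under 0.05 in 8 of 15 fits without 1 library. By role, the 10 higher regions were 5 of 40 tested near ligands, 2 of 19 near Frizzled genes, 2 of 10 near LRP genes, 0 of 6 near secretion genes and 1 of 11 near ROR and RYK genes, and the 3 lower ones lay near a ligand, a Frizzled and a secretion gene.

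Complete separation, called in every library of 1 treatment and in none of the other, was rare. With all peaks at 24 h it was found at 0 member regions in favour of Lgk974 and at 1, the FZD10 region, in favour of DMSO, of 192 tested. The background was 0.118% and 0.321% of 60356. At 48 h it was found at 0 member regions in either direction, against 0.656% for Lgk974 only and 1.08% for DMSO only over all regions. In equal lists at 24 h, 2 of 86 member regions (beside WNT4 and FZD5) were in Lgk974 libraries only and 0 in DMSO libraries only, against 1.61% and 0.478% over all regions. At 48 h, 1 (WNT4) was in Lgk974 libraries only and 1 (WLS) in DMSO libraries only, against 2.75% and 3.78%. At both times together, the WNT4 region was in Lgk974 libraries only and 0 members were in DMSO libraries only, against 0.364% and 0.133%. The smallest two-sided exact p is 0.0286 at either time alone, and separation was counted without a test. Without Lgk974 replicate 3 at 48 h, the short list, 13 of 625 member regions, tested or not, were called in both remaining Lgk974 and no DMSO libraries at 48 h with all peaks (2.08%), against 2.49% of all 218508 regions.

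Time changed few calls. Between 48 h and 24 h, over both treatments, 1 of 192 member regions was higher and 0 lower at an unadjusted exact p under 0.05, against 1.25% and 0.504% of all regions, and 0.0% passed after adjustment (smallest adjusted p = 1, exact permutation test). The region, at chr7:121372628-121373047, lay 31524 bp beyond the 3′ end of WNT16 and 23261 bp from the nearest protein-coding start (FAM3C). It was called in 4 of 7 libraries at 48 h (Lgk974 replicates 1 and 2, DMSO replicates 1 and 2) and in 0 of 8 at 24 h (exact permutation p = 0.0306). It lost p under 0.05 in 12 of 15 fits without 1 library. In equal lists 1 of 86 member regions was higher at 48 h and 1 lower, against 2.69% and 1.79%, and 0.0% of all regions passed after adjustment (smallest adjusted p = 0.813, exact permutation test).

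The rest of the WNT pathway stands beside these values, with no test between the lists. Near 64 other genes of the pathway (trafficking, extracellular inhibitors, receptor turnover, other surface proteins and intracellular components) 382 regions were tested with all peaks, with 11 higher and 15 lower in Lgk974 libraries by the same unadjusted test. In equal lists 150 were tested, and 8 were higher and 10 lower. After adjustment 0 passed in either (exact permutation test). Of the 9 receptor turnover genes, whose products remove Frizzled and LRP receptors from the cell surface or block that removal, 71 regions were tested with all peaks, and 3 were higher and 3 lower (background 2.96% and 3.08%). In equal lists 25 were tested, and 1 was higher and 6 lower (background 7.65% and 6.85%). Of the receptor-clearing ubiquitin ligases, RNF43 at its start and ZNRF3 at either end were called in all 15 libraries. So were 7 of 10 Frizzled genes, at a listed start or at either end. AXIN2, a feedback inhibitor induced by β-catenin, was called at either end in 0 of the 7 Lgk974 and 7 of the 8 DMSO libraries (exact permutation p = 0.00204, adjusted p = 0.639 over the 1879 gene starts tested). The ends of 2 more genes known as β-catenin targets had calls in both treatments: NOTUM in 3 of the 7 Lgk974 and 4 of the 8 DMSO libraries (exact permutation p = 0.992, adjusted p = 1) and LGR5 in 6 and 8, which was not tested.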

How the data were processed

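ATAC-seq peaks were measured in 15 HPAF-II libraries. The authors deposited 1 narrowPeak list per library, not pooled, on hg38. The deposited columns hold a score per peak, a signal ratio (fold enrichment), the −log10 p and −log10 q of the peak caller, and the summit offset. The submitters' processing notes name MACS2 and Bowtie2, beside SAMtools, Trimmomatic, bedtools and Picard, and also DiffBind, HOMER, DESeq2 and ChIPseeker, with versions and settings not given in the sources used here. The lists hold no counts, so sequencing depth and its precision are unknown, and a call depends on an unknown depth.

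Of 1413185 peaks, 1138 on other contigs were left out, and 1 damaged line was repaired. Peaks sharing at least 1 bp were merged into regions, and a library called a region if 1 of its peaks lay in it. Regions called in 3 to 12 libraries were tested by a two-sided exact permutation test stratified by time, with Benjamini-Hochberg adjustment over all regions tested and a threshold of 0.05 (checked on simulated data). Gene starts, within 1 kb of any start that RefSeq (GRCh38.p14) lists or of either annotated end, were tested in the same way. Gene bodies come from the RefSeq gene table, and exons were not resolved. The text names all member starts, regions past an unadjusted p of 0.05 (with all peaks and in equal lists), those that separate the treatments, and AXIN2, RNF43, ZNRF3, LGR5 and NOTUM from the other WNT lists. Members, lists and named genes were chosen with earlier results of these data known. Alternatives were equal lists (53583 peaks from every library), a −log10 q of at least 5, windows of 250 bp around summits, 50% cover, 10 kb, 3 kb at starts, single libraries or 3 libraries left out, and a replicate block. Tests ran in numpy 2.4.6 under Python 3.11.15, tables in pandas 2.3.3 and figures in matplotlib 3.10.9.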

Additional observations from a re-analysis of the deposited data

Results flagged for a closer look

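In groups of 4 libraries, 9 of 69 sets of values held 1 library far from the other 3 by Dixon's criterion, which chance alone gives in about 1 of 20 groups. Lgk974 replicate 3 at 24 h had 53610 peaks, against 95210 to 98930 in the other Lgk974 libraries at that time, and called 180 member regions, against 309 to 318. DMSO replicate 1 at 48 h called 21 member gene starts, and each of the other DMSO libraries at 48 h called 22. The other 6 were values of the detection excess, in percentage points. With all peaks, Lgk974 replicate 2 at 24 h stood at -3.18 near Frizzled genes (the others at -0.19 to 0.33) and at 6.67 for regions at a gene start (-1.88 to -0.47). Near the LRP genes Lgk974 replicate 1 at 24 h stood at -4.40 (1.14 to 1.83). Over all member regions DMSO replicate 2 at 24 h stood at -0.23 (0.62 to 0.77), and near PORCN and WLS DMSO replicate 1 at 24 h stood at -3.46 (3.75 to 4.96). In equal lists, DMSO replicate 3 at 48 h stood at -12.5 near the ROR and RYK genes (-4.03 to -3.32).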

How the results depend on the processing

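The regions found with all peaks kept their direction in every alternative that gave them a value. Those found in equal lists kept theirs in the other equal lists. With all peaks, however, the 3′ LRP5 region was called in 6 of the 7 Lgk974 and 7 of the 8 DMSO libraries. The WNT3A region chr1:228043301-228043883 was called in 6 and 8, so both went the other way. The sign of the detection excess difference also changed. In the alternatives run, 0 member regions and gene starts passed after adjustment (exact permutation test; the counts at an unadjusted p under 0.05 follow). With all peaks 3 member regions were higher in Lgk974 and 3 lower. There were 10 higher in equal lists (of 86; background 7.65%), 5 higher and 6 lower with 50% cover (of 236; 2.97% and 2.98%), 1 higher within 10 kb (of 100; 2.96%), and 7 higher and 1 lower without the 3 libraries that stood apart (of 140; 6.5% and 1.49%). In equal lists without those 3, 6 were higher and 1 lower (of 67; 6.99% and 5.6%), and with 40000 peaks 7 and 5. Without 1 library, 0 to 4 were higher and 1 to 6 lower with all peaks, and 6 to 9 and 1 to 3 in equal lists. The count of 4 came without Lgk974 replicate 3 at 48 h and that of 6 without DMSO replicate 3 at 24 h. The difference in detection excess (0.14 points) was 1.39 in equal lists and -1.84 with 25000 peaks, and without 1 library it ranged from -0.37 to 0.47 with all peaks and from 0.67 to 1.85 in equal lists. Between times, 2 were higher with 50% cover and 0 with 40000 or 25000 peaks. Lower at 48 h was 1 in equal lists, at a −log10 q of at least 5, without the 3 libraries and with 25000 peaks. Without 1 library, 0 to 1 were higher and 0 to 2 lower, with all peaks and in equal lists.

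Regions in all Lgk974 and no DMSO libraries at 24 h numbered 2 in equal lists, 2 without the 3 libraries, 5 in equal lists without them, 1 with 40000 peaks and 2 with 25000. Those in all DMSO libraries only numbered 0 in equal lists, at a −log10 q of at least 5 and with 25000 peaks, and 2 without the 3 libraries in either kind of list. At 48 h, those in Lgk974 libraries only numbered 1 in equal lists, 13 without the 3 libraries, 6 in equal lists without them, 2 with 40000 peaks and 1 with 25000. Those in DMSO libraries only at 48 h numbered 1 in equal lists, 1 at a −log10 q of at least 5, 2 in equal lists without the 3 libraries, 3 with 40000 peaks and 1 with 25000. Without 1 library the ranges at 24 h were 0 to 0 (Lgk974 only) and 1 to 5 (DMSO only) with all peaks, and 2 to 5 and 0 to 1 in equal lists. At 48 h they were 0 to 13 and 0 to 3 with all peaks, and 1 to 6 and 1 to 4 in equal lists. With all peaks the highest counts came without DMSO replicate 4 at 24 h (5), Lgk974 replicate 3 at 48 h (13) and Lgk974 replicate 2 at 48 h (3). The cause of these shifts was not tested.

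Replicates share numbers across treatments. Deviations of same-numbered libraries correlated at 0.10 to 0.14 at 24 h (4 pairs; different numbers -0.16 to 0.15) and at -0.03 to 0.15 at 48 h (3 pairs; different numbers -0.13 to 0.10). These values do not settle whether the numbers pair the libraries, and the main tests did not pair them. A replicate block was run with all peaks and not in equal lists. With the replicate block, 0 member regions were higher (background 0.232%) and 1 lower (0.33%), the FZD10 region (exact permutation p = 0.0312). The other 5 regions had a p of 0.125, or 0.219 for the WNT3A region, and the difference in detection excess was 0.06 points. What depth limits cannot be stated without counts.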
